A study of Mus musculus with 6 samples.

Results

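Guanylate-binding proteins and immunity-related GTPases are interferon-induced enzymes that coat intracellular pathogens, and the 9 genes described here join 4 of these GTPases with the ubiquitin-like modifier Isg15 and 4 transcription factors of the interferon response. They were Gbp2, Gbp3, Igtp, Irgm1, Isg15, Irf1, Irf2, Irf9 and Stat2, and all 9 were found among the 24083 genes of the deposited expression table. They had been chosen by their expression in the same R153A and WT libraries that are compared below, so their differences are described and not tested. The RNA came from cultured embryonic stem cells of the mouse, which can form all tissues of the body, in 3 libraries with the R153A form of Nanog (R153A) and 3 libraries with wild-type Nanog (WT). Both groups were grown without added treatment on gelatin in serum medium with LIF, a cytokine that itself signals through JAK kinases and STAT3. Polyadenylated RNA was sequenced, and levels are in FPKM, a unit that divides the fragments of a gene by its length and by the library's size. The sources do not say how the R153A cells were made. Whether a group's libraries were separate cultures or clones is not given in the sources used here, so p-values measure only the spread between these libraries, which may be technical.

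Interferons are secreted proteins that bind paired receptors and activate the kinases JAK1, JAK2 and TYK2. Type I and type III interferons lead to the ISGF3 complex, which holds STAT2 and IRF9 and binds the interferon-stimulated response element, whereas the response to interferon gamma runs through the gamma-activated site. IRF1 is itself induced by interferon gamma and binds the same kind of element as ISGF3. Pluripotent stem cells are known for a weak response to interferon compared with differentiated cells.

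Summed over all genes, the FPKM of a library came to between 372761 and 382086 in R153A and between 360152 and 381782 in WT, and the read depth was unknown because no counts were given. Nanog, the gene whose form the labels name, stood at 119, 122 and 129 FPKM in R153A, against 241, 259 and 258 FPKM in WT (log2 fold change -1.03, SE 0.0506, limma adjusted p = 2.5e-08, exact two-sided permutation p = 0.1, the smallest that 3 against 3 libraries allow). These values do not show which form of the transcript a library held. Of 8 stem cell markers 7, Nanog included, were lower in R153A (limma adjusted p under 0.05), beside 22.3% of all genes tested. The 8 summed to between 2270 and 2370 FPKM in R153A, against 4293 to 5055 FPKM in WT. Dppa5a made up the largest part of the sum, with 936 ± 20.5 FPKM in R153A and 2575 ± 364 FPKM in WT (SD, n = 3 each). Tdgf1 did not reach that threshold (limma adjusted p = 0.869). Hmgcs1, a housekeeping enzyme of sterol synthesis, had a listed value of 0 throughout, so zeros in the table may be failed estimates and are called listed at 0.

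Promoter sequence was not used to choose the 9 genes, and it is shown for 8 of them because it holds the sites to which the factors among them bind. RefSeq windows of 300 bases, from 250 bases before to 50 after an annotated gene start, were searched on both strands for the core of the interferon-stimulated response element, GAAA and GAAA separated by any 2 bases, and for the gamma-activated site TTCNNNGAA. In the stretches below the matches are in capitals, the rest is in lower case, and each stretch reads 5′ to 3′ on the strand of the gene.
Gbp2, chr3:142620584-142620633, plus strand: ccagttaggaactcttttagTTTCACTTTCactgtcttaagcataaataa
Gbp3, chr3:142559979-142560034, plus strand: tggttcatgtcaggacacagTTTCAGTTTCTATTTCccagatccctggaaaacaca
Igtp, chr11:58199491-58199551, plus strand: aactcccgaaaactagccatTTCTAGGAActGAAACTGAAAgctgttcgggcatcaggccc
Irgm1, chr11:48871415-48871470, minus strand: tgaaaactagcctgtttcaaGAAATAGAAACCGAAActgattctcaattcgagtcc
Isg15, chr4:156200855-156200916, minus strand: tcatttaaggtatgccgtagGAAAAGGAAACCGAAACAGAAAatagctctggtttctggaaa
Irf1, chr11:53769904-53769952, plus strand: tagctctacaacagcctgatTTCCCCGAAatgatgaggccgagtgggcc
Irf2, chr8:46739495-46739549, plus strand: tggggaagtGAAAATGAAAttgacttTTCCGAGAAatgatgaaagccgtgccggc
Stat2, chr10:128270256-128270305, plus strand: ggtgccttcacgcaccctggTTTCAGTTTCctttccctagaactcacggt
These coordinates are of GRCm38.p6, the build of the RefSeq table, and not of mm9, the build named for the deposited values.

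The interferon-stimulated response element core was found in the windows of 7 of the 9 genes, Gbp2, Gbp3, Igtp, Irgm1, Isg15, Irf2 and Stat2, whereas 3.99% of the 27025 genes with a window held it. In the 4 GTPase genes and Isg15 the matches began between 24 and 78 bases before the gene start. In Irf2 and Stat2 they began 241 and 222 bases before it. Gbp3 and Irgm1 each held 2 overlapping copies and Isg15 held 3, as the longer capital runs show. The gamma-activated site was found in 3 of the 9 genes, Igtp, Irf1 and Irf2, and in 9.55% of all genes with a window. Irf1 held the gamma-activated site without the other element, 90 bases before its start, and the 2 windows of Irf9 held neither. No match of one motif overlapped a match of the other in the 9 genes. A match is a description of letters and not evidence of binding, and most of the 9 genes are known from textbooks as interferon targets.

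**Figure D1:**
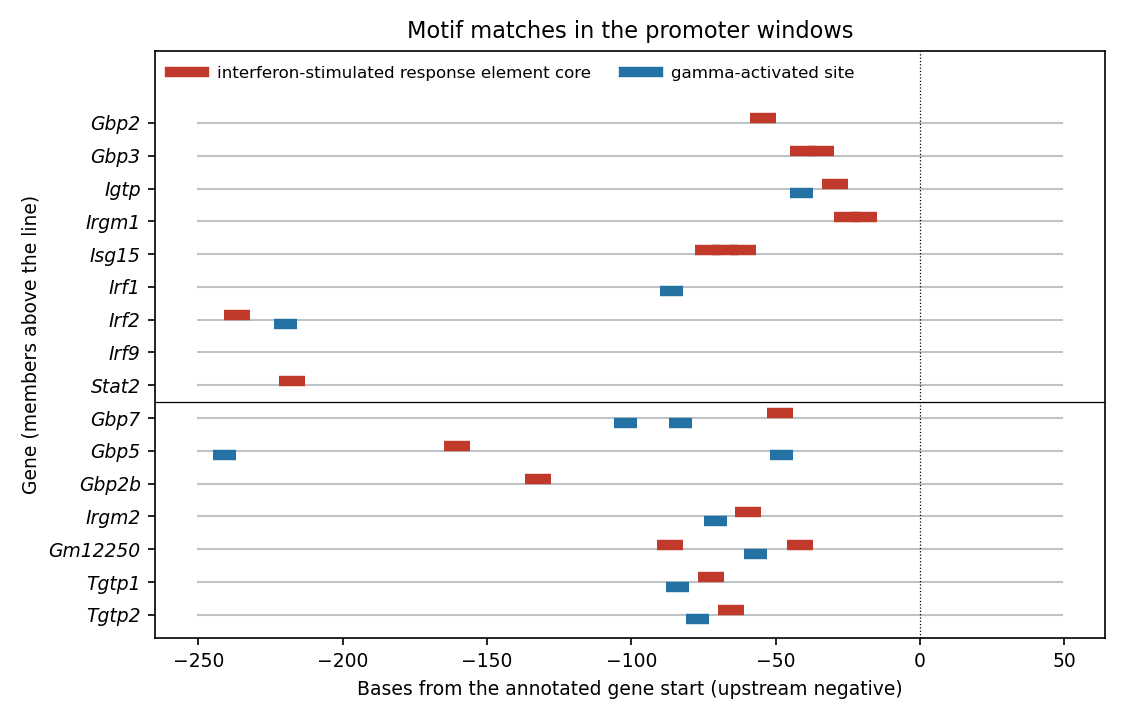
Positions of motif matches in the first promoter window of the 9 genes and of 7 relatives named below; the x axis is the distance in bases from the annotated gene start, red bars are the interferon-stimulated response element core and blue bars the gamma-activated site. In Gbp2, Gbp3, Igtp, Irgm1 and Isg15 the red bars lie within 78 bases of the start, as in Gbp7, Irgm2, Tgtp1 and Tgtp2, whereas in Gbp2b, Gbp5 and Gm12250 a bar begins 137, 165 and 91 bases before it and in Irf2 and Stat2 they begin 241 and 222 bases before it.

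Gbp2, a guanylate-binding protein that gathers on the vacuoles of intracellular pathogens, had the largest difference of the 9 genes. It stood at 40.7, 43.9 and 43.8 FPKM in R153A, against 2.09, 2.48 and 2.03 FPKM in WT. The lowest R153A library was thus far above the highest WT library, and the ratio of the means was 19.5. Its log2 fold change, taken like all those below as R153A minus WT of log2(FPKM + 1), was 3.78 (SE 0.0698), the third largest of the 11817 genes that passed the expression filter. That scale understates the differences of genes near or under 1 FPKM.

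Gbp3, a second guanylate-binding protein, stood at 4.13, 4.53 and 4.23 FPKM in R153A, against 0.335, 0.320 and 0.267 FPKM in WT. Its groups did not overlap either, with a ratio of means of 14 and a log2 fold change of 2.02 (SE 0.0766). All 3 WT libraries lay under 1 FPKM, so Gbp3 passed the expression filter of 1 FPKM in at least 3 libraries only through R153A. In R153A its mean of 4.29 ± 0.207 FPKM was far below the 42.8 ± 1.81 FPKM of Gbp2 (SD, n = 3 each). Both genes had a response element core within 59 bases of the start. Of the 50-base words in GENCODE M21 transcripts, 2.03% of those of Gbp2 and 3.75% of those of Gbp3 also occurred in another gene, Gbp2b and Gbp7 being the genes they were shared with.

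Irgm1, a regulatory immunity-related GTPase that protects host membranes from the effector GTPases, stood at 11.6, 11.8 and 13.7 FPKM in R153A, against 1.32, 1.23 and 1.35 FPKM in WT. The ratio of means was 9.54 and the log2 fold change 2.54 (SE 0.0788). Igtp, also called Irgm3 and of the same regulatory class, stood at 5.73, 5.09 and 5.73 FPKM in R153A, against 1.06, 1.28 and 1.12 FPKM in WT. For Igtp the ratio of means was 4.78, smaller than for Irgm1, from WT levels that lay close together. In WT the ranges of Irgm1 and Igtp overlapped, whereas in R153A every Irgm1 value was above every Igtp value. Exons of Igtp overlap exons of its neighbour Irgm2 on the same strand in GENCODE M21, and 11.8% of its 50-base words were also found there, so the values of these neighbours are uncertain to that extent.

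Isg15, the ubiquitin-like protein that is attached to other proteins during antiviral responses, was near the bottom of the scale in WT. It stood at 2.48, 2.17 and 2.92 FPKM in R153A, against 0.175, 0.299 and 0.0332 FPKM in WT. The WT mean of 0.169 FPKM had an SD of 0.133, and no ratio is given because 1 WT value was under 0.1 FPKM. The groups did not overlap, and the log2 fold change was 1.59 (SE 0.11). Isg15 passed the expression filter only through R153A.

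Irf1, an activator of interferon target genes, was the most highly expressed of the 9 genes in both groups. It stood at 51.6, 49.5 and 54.6 FPKM in R153A, against 12.5, 13.6 and 12.6 FPKM in WT. No library of a group came near the other group, the ratio of means was 4.03 and the log2 fold change was 1.93 (SE 0.0566). Irf2, a relative that can compete with IRF1 for the same sites, stood at 0.605, 0.593 and 0.974 FPKM in R153A, against 0.173, 0.184 and 0.122 FPKM in WT. Its ratio of means was 4.54, close to that of Irf1, but Irf2 lay under 1 FPKM in every library and was not among the genes tested.

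Stat2 and Irf9, which encode subunits of ISGF3, were not higher in R153A. Stat2 stood at 5.81, 6.06 and 5.95 FPKM in R153A, against 8.07, 8.31 and 9.42 FPKM in WT. All 3 R153A values were below the 3 WT values, with a WT mean 1.45 times that of R153A and a log2 fold change of -0.47 (SE 0.0708). Irf9, the DNA-binding subunit, stood at 2.08, 1.67 and 2.04 FPKM in R153A, against 1.95, 2.26 and 1.97 FPKM in WT. The groups overlapped, and the log2 fold change of -0.06 (SE 0.0868) was smaller than its own error. Without R153A replicate 2 that value was 0.00, so Irf9 had no stable direction. A stretch of Irf9 exons is shared with Rnf31 on the same strand, with 1.32% of its 50-base words in common.

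**Figure D2:**
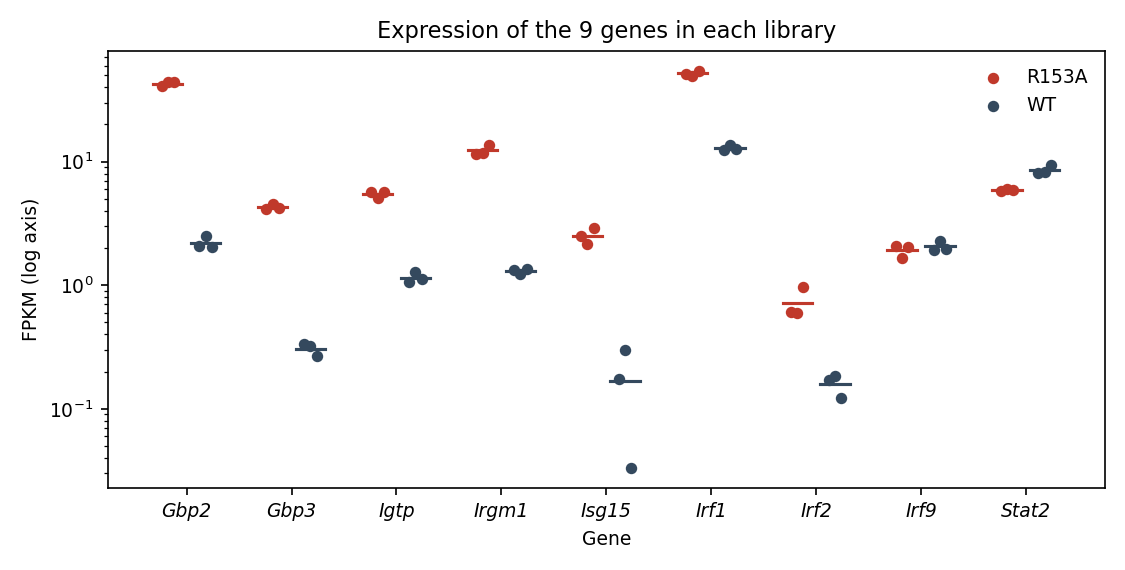
FPKM of the 9 genes on a log axis, with 1 point per library (red R153A, dark grey WT) and a bar at each group's mean. Points of R153A lie above those of WT for 7 genes, overlap for Irf9 and lie below for Stat2.

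Across the 9 genes, R153A values were all above WT values for 7, all below for 1, Stat2, and overlapped for 1, Irf9. Of the 8 that passed the expression filter, 6 were wholly above and 1 wholly below, where 39.8% and 25.2% of all 11817 genes tested were wholly above or below. Nothing can be read from that difference, since the genes were picked from the same contrast. The median log2 fold change of the 9 genes was 1.60, against 0.07 over all genes tested. Igtp and Isg15 stood at ranks 210 and 211 from the top, Irf1 at 126, Gbp3 at 103 and Irgm1 at 32, whereas Stat2 was 1044th from the bottom.

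**Figure D3:**
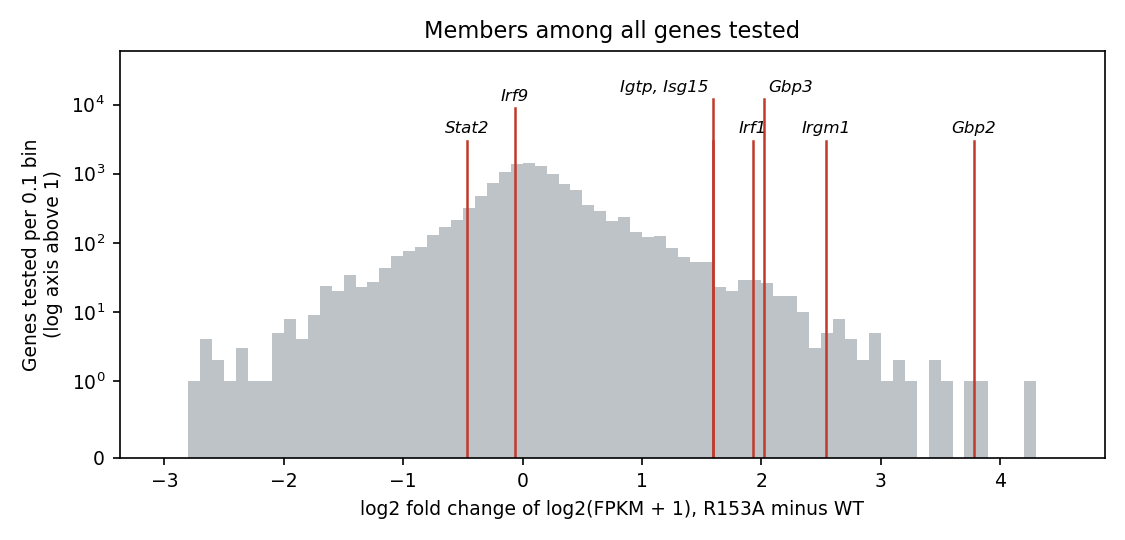
Histogram of the log2 fold changes of all 11817 genes tested, in bins of 0.1 with a log axis above 1, and red lines at the 8 of the 9 genes that passed the expression filter. Stat2 and Irf9 lie within the bulk of genes and the other 6 lie between 1.59 and 3.78 in the upper tail.

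The order of the 9 genes by level also differed between the groups. In R153A the order from high to low was Irf1, Gbp2, Irgm1, Stat2, Igtp, Gbp3, Isg15, Irf9 and Irf2, and no 2 neighbours in it had overlapping libraries. In WT it was Irf1, Stat2, Gbp2, Irf9, Irgm1, Igtp, Gbp3, Isg15 and Irf2. There the ranges of Gbp2 and Irf9, of Irgm1 and Igtp, of Gbp3 and Isg15, and of Isg15 and Irf2 overlapped. Stat2 was thus second only to Irf1 in WT and stood below Gbp2 and Irgm1 in R153A.

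The GTPase genes lie in clusters, and their relatives, which were not chosen with them, differed along each cluster (named by their order on GRCm38.p6). On chromosome 3 the order is Gbp5, Gbp7, Gbp3, Gbp2b and Gbp2. Gbp7 stood at 2.23, 2.08 and 2.63 FPKM in R153A, against 0.205, 0.180 and 0.287 FPKM in WT, and it rose (log2 fold change 1.43, SE 0.0896, limma adjusted p = 1.6e-07). In the same cluster Gbp2b was listed at 0 in all 6 libraries and Gbp5 did not exceed 0.0383 FPKM in any. Both hold the response element core in their windows. Of the genes on either side of that cluster, Pdlim5 did not pass (7.35 ± 0.362 FPKM in R153A and 8.14 ± 0.437 FPKM in WT, SD, n = 3 each, limma adjusted p = 0.118). Ccbl2, an enzyme of kynurenine metabolism on the other side, fell to 2.02 ± 0.121 FPKM in R153A, against 4.96 ± 0.679 FPKM in WT (limma adjusted p = 4.5e-06).

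On chromosome 5 the run Gbp8, Gbp9, Gbp4, Gbp10 and Gbp6 had low levels in both groups. Gbp4, a further guanylate-binding protein, rose, with 1.05, 1.12 and 1.26 FPKM in R153A, against 0.182, 0.192 and 0.245 FPKM in WT (limma adjusted p = 6.3e-06). Gbp9 stood at 0.585 to 0.740 FPKM in R153A, against 0.257 to 0.290 FPKM in WT, and was not tested. The groups of Gbp6, Gbp8 and Gbp10 did not overlap either, at levels no higher than 0.221 FPKM, and 70.7% of the 50-base words of Gbp6 and 84.1% of those of Gbp10 also occur in other genes. In the guanylate-binding family as a whole, 2 of the 9 genes in the table other than Gbp2 and Gbp3 were tested and both rose. Neither would have passed the expression filter on its WT libraries alone.

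Among the immunity-related GTPases, Irgm2 lies next to Igtp on chromosome 11. It stood at 2.10, 2.40 and 2.28 FPKM in R153A, against 0.423, 0.307 and 0.431 FPKM in WT, and rose (log2 fold change 1.23, SE 0.0824, limma adjusted p = 2.8e-07), having passed the filter only through R153A. Irgq rose as well, to 2.41, 2.41 and 2.42 FPKM in R153A, against 0.968, 1.47 and 0.963 FPKM in WT (limma adjusted p = 1.2e-04). The effector GTPases of the family, which act on pathogen vacuoles, were too low to test. Ifi47 was the highest of those named here, at 0.116 to 0.287 FPKM in R153A, against 0 to 0.0976 FPKM in WT. Iigp1 did not exceed 0.0161 FPKM in any library, Tgtp1 and Tgtp2, which are near-identical copies, reached at most 0.103 FPKM, and Gm12250, the effector Irgb10 beside Igtp, was listed at 0 in the 3 R153A libraries, against at most 0.0481 FPKM in WT. Gm12250, Tgtp1 and Tgtp2 hold both motifs in their windows, as Igtp and Irgm2 do. Of the 50-base words of Tgtp1 and Tgtp2, 81.2% and 86.6% also occur in other genes. Their low values, and the 0 of Gm12250, which may be a failed estimate, are thus uncertain. Whether motifs and levels are related was not tested. Trim7, the gene beside Irgm1 outside its cluster, was not tested and stood at 0.961 to 1.19 FPKM in R153A, against 0.204 to 0.302 FPKM in WT. Mrpl22, beside Gm12250, did not pass (limma adjusted p = 0.429).

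**Figure D4:**
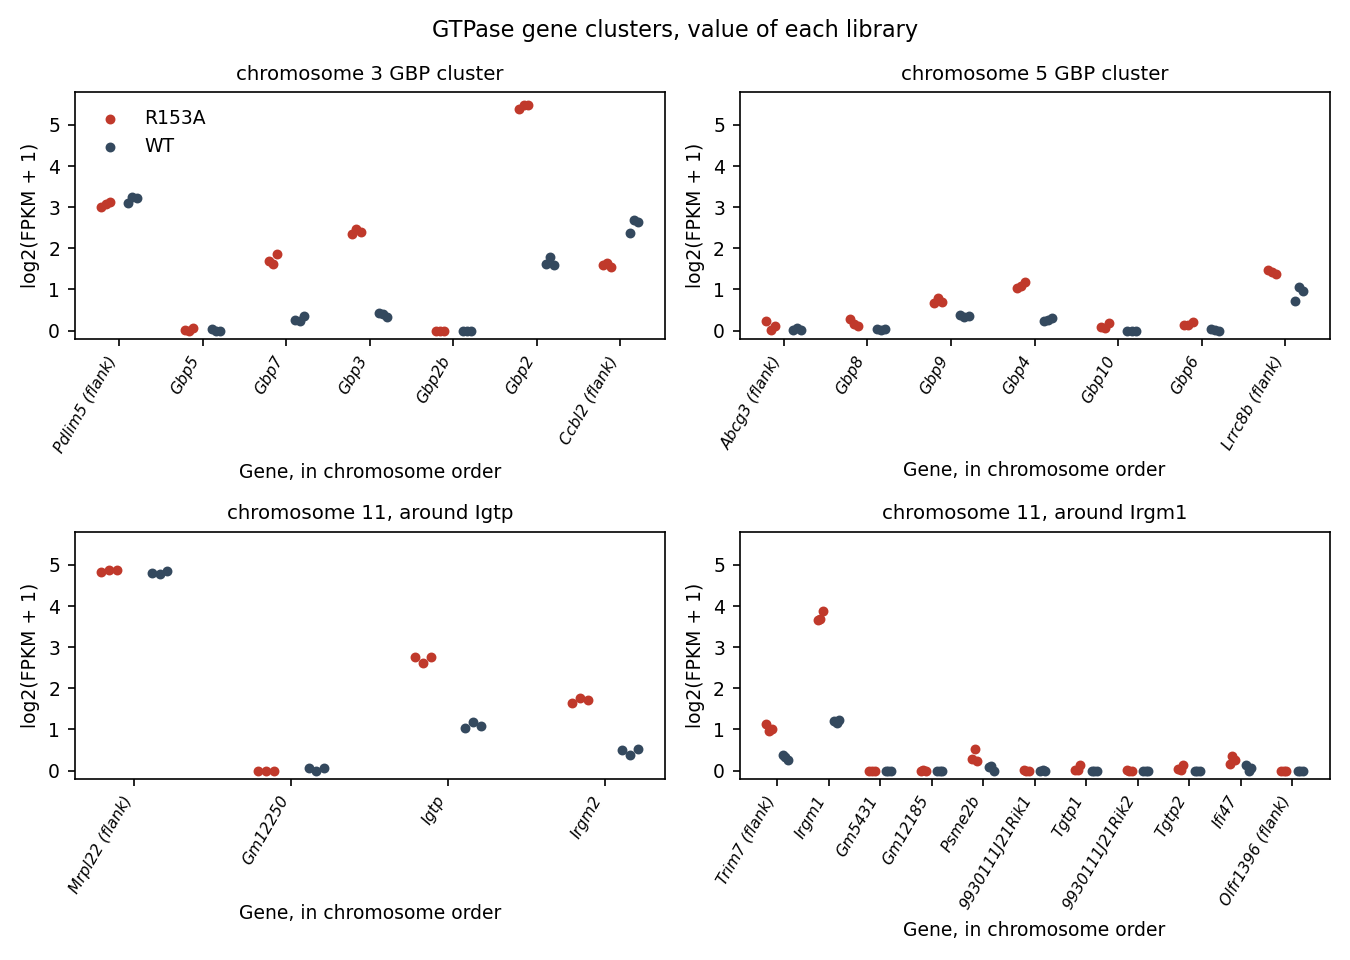
Values of log2(FPKM + 1) in each library (red R153A, dark grey WT) for the GTPase genes in their order along 4 chromosome clusters, with the neighbouring gene on either side where it is in the table. Gbp2, Gbp3, Gbp7, Irgm1, Igtp and Irgm2 stand above their WT points, while Gbp5, Gbp2b and most genes beyond Irgm1 lie at or near 0 in both groups. The neighbouring genes Lrrc8b and Trim7 also stand above their WT points, and Ccbl2 stands below.

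The rest of the pathway was followed in 12 lists, 11 of interferon genes and 1 of LIF pathway and response genes, which were put together with earlier results of these data known. They held 146 genes besides the 9, of which 68 were tested. A rise was called for 42 (61.8%), a fall for 17 (25%) and neither for 9, beside 37.5% higher and 22.3% lower over all genes tested (59.8% called in either direction at a limma adjusted p under 0.05). The higher calls over all genes made up 62.7% of the calls, but 50.7% under median-ratio scaling and 47.4% under quantile normalization. Under those scalings 40 and 38 pathway genes rose, and 19 and 20 fell. Without the LIF list, 41 of 63 rose and 13 fell. Of the 68 genes, 15 had fewer than 3 WT libraries at 1 FPKM and so passed the filter with the help of R153A. Of these 13 rose and none fell, beside 740 higher and 2 lower among 917 such genes over all genes tested. Ifngr2, Jak2, Irgq, Cxcl10 and Tap2 were among these 15, beside the genes named as having passed only through R153A. Another 2 passed with the help of WT, and both fell, beside 246 lower among 397 such genes over all genes tested. Of the remaining 51 genes, 29 rose and 15 fell, beside 3688 higher and 2388 lower among 10600 such genes overall. The median log2 fold change was 0.46 over the 68 genes, against 0.07 over all genes tested.

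None of the ligand genes passed the expression filter. Of 21 ligand genes, 15 were listed at 0 in all 6 libraries, among them Ifnb1, and none was listed above 0.0866 FPKM in any library. Since a 0 in this table may be a failed estimate, these values do not show that the genes were silent. The 2 with the highest means were Ifnk, at 0.0309 to 0.0866 FPKM in R153A, against 0 to 0.0197 FPKM in WT, and Ifnz, at 0.0137 to 0.0725 FPKM in R153A, against 0 to 0.00465 FPKM in WT. The interferon gamma gene Ifng was listed at 0.0210 FPKM in 1 R153A library and at 0 in the other 5 libraries.

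Of the 4 receptor genes tested, 3 rose and 1 fell, beside 37.5% higher and 22.3% lower over all genes tested. Both chains of the interferon gamma receptor rose. Ifngr1 stood at 3.16, 3.84 and 4.10 FPKM in R153A, against 1.899, 1.93 and 2.28 FPKM in WT (log2 fold change 0.63, SE 0.0942, limma adjusted p = 1.7e-04). Ifngr2 stood at 2.50, 2.50 and 2.68 FPKM in R153A, against 0.964, 0.976 and 1.03 FPKM in WT (log2 fold change 0.84, SE 0.0745, limma adjusted p = 2.6e-06). The chains of the type I receptor moved in opposite directions. Ifnar1 rose to 5.75, 6.16 and 6.03 FPKM in R153A, against 4.26, 4.61 and 4.59 FPKM in WT (limma adjusted p = 0.00102), and Ifnar2 fell to 3.03, 3.23 and 2.97 FPKM in R153A, against 4.73, 4.31 and 4.67 FPKM in WT (limma adjusted p = 2.6e-04).

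Of the JAK kinases, Jak2, which serves the interferon gamma receptor, rose to 2.03, 1.68 and 1.84 FPKM in R153A, against 0.943, 0.963 and 1.16 FPKM in WT (limma adjusted p = 4.4e-04). Jak1 and Tyk2 fell by 0.17 and 0.21 on the log2 scale (limma adjusted p = 0.0216 and 0.0244). Jak1 serves both the interferon gamma and the type I receptors, and Tyk2 serves the type I receptor. The Jak1 call ended without R153A replicate 1 (limma adjusted p = 0.0787) and without R153A replicate 2 (0.0601). The Tyk2 call ended without R153A replicate 2 (0.0701), R153A replicate 3 (0.0699) or WT replicate 2 (0.0631).

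Inhibitors of the pathway also moved both ways, beside 37.5% higher and 22.3% lower over all genes tested. Of 6 inhibitor genes tested, 2 were higher, 3 did not pass and 1 was lower. A second, the phosphatase gene Ptpn2, was called lower without WT replicate 2 (limma adjusted p = 0.0406) and in 4 other alternatives, 0.0557 being its value with all libraries. Socs1, the main feedback inhibitor of interferon gamma signalling, rose to 6.998, 5.61 and 8.25 FPKM in R153A, against 2.55, 2.23 and 3.18 FPKM in WT (log2 fold change 1.12, SE 0.127, limma adjusted p = 1.9e-05). Socs3, the feedback inhibitor of LIF signalling, fell to 12.7, 12.9 and 12.9 FPKM in R153A, against 28.1, 31.3 and 31.3 FPKM in WT (limma adjusted p = 2.4e-08). The phosphatase gene Ptpn11 rose by a log2 fold change of 0.43 (limma adjusted p = 5.3e-05). Of 6 LIF pathway and response genes tested, 5 fell and 1 rose, beside the same shares over all genes tested. Bcl3, an IκB family member, fell by 1.49 on the log2 scale (limma adjusted p = 1.3e-08), and the receptor chains Lifr and Il6st fell by 0.64 and 0.49 (limma adjusted p = 9.5e-04 and 8.1e-05).

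Among the other IRF genes, Irf3, which drives interferon genes after viral sensing, was called higher with a small change. It had 11.1, 9.443 and 11.1 FPKM in R153A, against 8.57, 9.439 and 8.74 FPKM in WT (limma adjusted p = 0.0262). Its call ended in 7 of 16 alternatives, 4 of them single libraries left out, with adjusted p up to 0.107. Irf8, an IRF of blood cells, was not tested and stood at 0.971, 1.02 and 1.10 FPKM in R153A, against 0.475, 0.584 and 0.307 FPKM in WT. Irf7, the IRF of the type I feedback loop, did not exceed 0.228 FPKM in any library.

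Of 6 tested sensors of foreign nucleic acid and their adaptors, 3 rose, 1 fell and 2 did not pass. Over all genes tested, 37.5% were called higher and 22.3% lower. Zbp1, a sensor of Z-form nucleic acid, rose to 1.99, 2.31 and 2.96 FPKM in R153A, against 0.299, 0.755 and 0.664 FPKM in WT (limma adjusted p = 2.5e-05), and passed the filter only through R153A. Mavs, the mitochondrial adaptor of RNA sensors, fell to 5.33, 4.46 and 5.22 FPKM in R153A, against 8.93, 8.96 and 8.97 FPKM in WT (limma adjusted p = 6.2e-06). Tbk1 and Traf3 each rose by a log2 fold change of 0.22 (limma adjusted p = 0.0109 and 0.0439). Without R153A replicate 3 only 1 of the 3, Zbp1, was called higher. The Tbk1 call ended without that library (0.0564) and under quantile normalization (0.0611). The Traf3 call ended in 8 of 15 alternatives, with 0.563 under quantile normalization, 0.164 without WT replicate 3 and 0.0699 to 0.116 without an R153A library.

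The enzymes that attach Isg15 did not follow it together. Ube2l6, the conjugating enzyme of ISG15, fell to 6.46, 6.23 and 6.85 FPKM in R153A, against 25.7, 27.1 and 29.8 FPKM in WT (log2 fold change -1.93, SE 0.0670, limma adjusted p = 2.3e-09). Herc6, the ligase of the mouse system, rose to 1.58, 1.62 and 1.61 FPKM in R153A, against 0.340, 0.348 and 0.284 FPKM in WT (limma adjusted p = 1.1e-06), having passed the filter only through R153A. Uba7, the activating enzyme, and Usp18, the protease that removes ISG15, did not pass the filter. Their groups did not overlap, Uba7 standing at 0.185 to 0.291 FPKM in R153A, against 0.00309 to 0.0453 FPKM in WT, and Usp18 at 0.1096 to 0.140 FPKM in R153A, against 0.00193 to 0.0561 FPKM in WT.

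Of 23 antiviral effectors and other interferon-induced genes tested, 13 rose, 7 fell and 3 did not pass, and 24 others were too low to test. Over all genes tested, 37.5% were called higher and 22.3% lower. Cxcl10, a chemokine induced by interferon gamma, rose to 5.15, 5.11 and 5.53 FPKM in R153A, against 0.418, 0.878 and 1.0 FPKM in WT (log2 fold change 1.84, SE 0.118, limma adjusted p = 2.0e-07). Oasl2, an oligoadenylate synthetase relative, rose with a log2 fold change of 1.81 (limma adjusted p = 7.4e-09) and passed the filter only through R153A. Dtx3l and Parp9, partner genes of a ubiquitin ligase and an ADP-ribosyltransferase, rose with log2 fold changes of 1.51 and 1.46 (limma adjusted p = 2.3e-07 and 2.6e-08). Xaf1 passed the filter only through WT. The 7 that fell were Oas1a, Oas1g, Ifitm2, Ifitm3, Trim25, Xaf1 and Lgals9, which are named because they went the other way, after their values were seen. Oas1a, which makes the activator of an antiviral ribonuclease, stood at 5.47, 5.33 and 5.24 FPKM in R153A, against 11.7, 11.8 and 11.4 FPKM in WT (limma adjusted p = 1.1e-07). The Trim25 call ended without R153A replicate 2 (0.0546).

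All 12 tested genes of antigen processing rose, of 14 in the table, beside 37.5% of all genes tested. This list, like the others, was put together with earlier results of these data known. Tap2, with 1 WT library under 1 FPKM, passed the filter with the help of R153A, and the other 11 had every library at 1 FPKM or more. Their median log2 fold change was 1.92. Psmb8, an immunoproteasome subunit, rose to 14.7, 14.7 and 13.6 FPKM in R153A, against 1.22, 1.897 and 1.26 FPKM in WT (log2 fold change 2.65, SE 0.101, limma adjusted p = 4.0e-09). The class I heavy chain genes H2-D1 and H2-K1 rose with log2 fold changes of 2.52 and 2.22, and the peptide transporter gene Tap1 with 2.04 (limma adjusted p = 4.1e-10, 3.9e-10 and 1.8e-09). The regulators of the class I and class II genes, Nlrc5 and Ciita, were not tested and did not exceed 0.0784 and 0.0582 FPKM in any library. Their groups did not overlap at these low levels. Nlrc5 stood at 0.0606 to 0.0784 FPKM in R153A, against 0.00612 to 0.0178 FPKM in WT. Ciita stood at 0.0318 to 0.0582 FPKM in R153A, against 0.00262 to 0.00456 FPKM in WT.

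**Figure D5:**
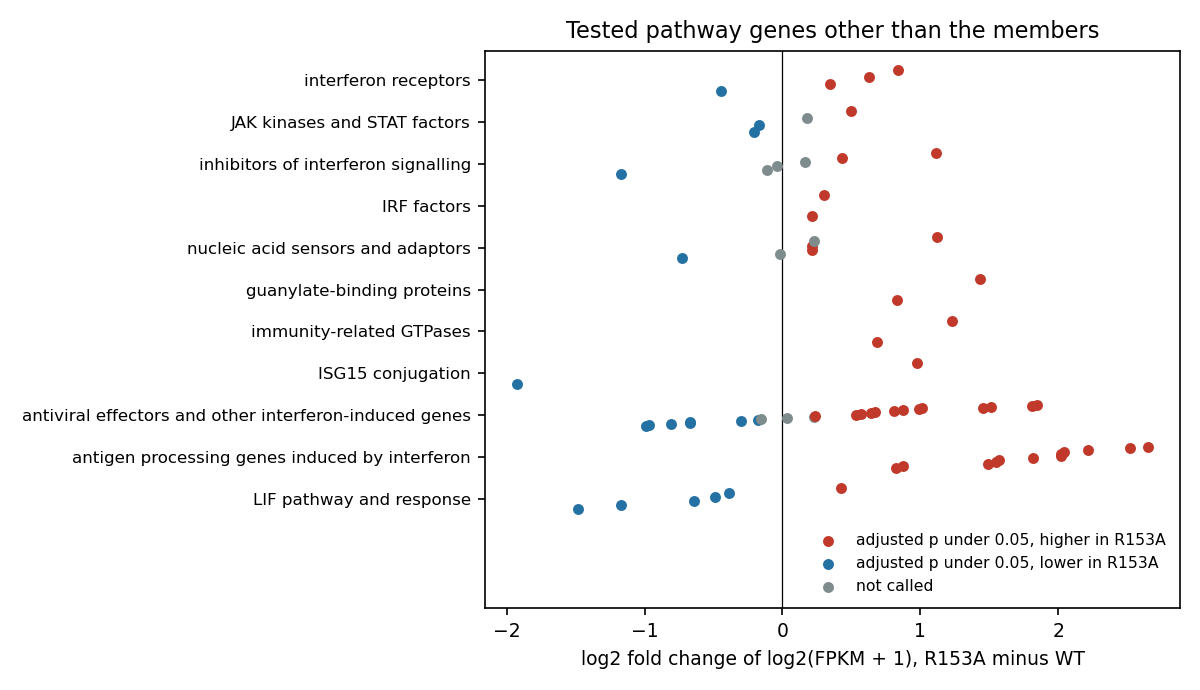
Log2 fold changes of the 68 tested pathway genes other than the 9, 1 point per gene and list, coloured by the limma call; the x axis is R153A minus WT of log2(FPKM + 1). The antigen processing genes lie wholly to the right of 0, the LIF pathway genes mostly to the left, and the receptors, kinases, inhibitors, sensors, ISG15 enzymes and antiviral genes on both sides.

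The genes whose pattern over the 6 libraries was most like that of Gbp2 came from outside the interferon lists. By the Euclidean distance of log2(FPKM + 1) after subtracting each gene's WT mean, they were Wnt8a (distance 0.315), Apela (0.450), Pim2 (0.523), Igfbp3 (0.690) and Pnmal1 (0.887). That measure is set mainly by the size of the difference between the groups. Wnt8a and Pnmal1 passed the expression filter only through R153A.

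Markers of other cell types were checked because blood cells and fibroblasts express many of these genes. Of 9 blood cell markers, Ptprc, Csf1r, Emr1, Itgam and Cd3e did not exceed 0.154 FPKM in any library. Their list summed to between 7.21 and 8.26 FPKM in R153A, against 5.11 to 5.41 FPKM in WT, mostly from Cd68 and from Cd74, itself induced by interferon gamma, which rose (limma adjusted p = 1.2e-04). Cd68 did not pass (limma adjusted p = 0.272). Lyz2 was not tested and stood at 0.964 to 1.45 FPKM in R153A, against 0.584 to 0.810 FPKM in WT. Of 8 fibroblast and feeder cell markers, 3 were tested and 2, Col1a1 and Col1a2, rose, both having passed the filter with the help of R153A, and the list summed to between 8.27 and 9.14 FPKM in R153A, against 5.68 to 6.48 FPKM in WT. Thy1, the other one tested, did not pass (3.19 ± 0.274 FPKM in R153A and 3.79 ± 0.467 FPKM in WT, SD, n = 3 each, limma adjusted p = 0.0899). Of those too low to test, Col3a1, Dcn and Pdgfrb had every R153A library above every WT library, at no more than 0.372 FPKM. The groups of Postn and Lum overlapped, and Lum did not exceed 0.0637 FPKM. Of the 4 endothelial markers none was tested, and they summed to between 0.693 and 0.797 FPKM in R153A, against 0.782 to 0.939 FPKM in WT, with Emcn listed at 0 in every library. Of the 7 extraembryonic markers, Cdx2 rose to 2.63, 3.22 and 2.48 FPKM in R153A, against 0.139, 0.0749 and 0.137 FPKM in WT (limma adjusted p = 4.4e-08), having passed the filter only through R153A. The other tested markers, Gata4 (1.48 ± 0.156 FPKM in R153A and 1.48 ± 0.216 FPKM in WT, limma adjusted p = 0.973) and Hand1 (2.61 ± 0.305 FPKM in R153A and 2.66 ± 0.308 FPKM in WT, limma adjusted p = 0.869; SD, n = 3 each), did not pass, and Sox17, Afp and Elf5 did not exceed 0.172 FPKM, and the list summed to between 6.76 and 7.65 FPKM in R153A, against 3.97 to 5.06 FPKM in WT. The part of these cell types in the differences above was not tested, and in such bulk libraries more cells of a kind and more RNA per cell cannot be told apart.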

How the data were processed

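Polyadenylated RNA of 6 mouse embryonic stem cell libraries, 3 R153A and 3 WT by their titles, had been sequenced. The authors deposited 1 table of FPKM values per gene symbol and library. The submitters' processing notes name the build mm9 and, without their roles, edgeR 3.26.8, HTSeq 0.11.2, SAMtools 1.9 and Bowtie2 2.3.4.3. The tool behind the FPKM, the annotation and any use of strand were not given in the sources used here. FPKM keep no depth, so no count test was run.

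Values were used as log2(FPKM + 1). Genes with 1 FPKM or more in at least 3 libraries (11817) entered a two-sided limma test (version 3.58.1, R 4.3.3) that let the variance follow the mean, with Benjamini-Hochberg adjusted p-values over all of them and calls at an adjusted p under 0.05. The fit was tested on simulated data. The 9 genes were described without a test. Ratios of means were given where every library reached 0.1 FPKM. The members and lists were chosen with earlier results of these data known. Beyond the 9 genes, the relatives in their families and Nanog, the text names in each list the called genes with the greatest log2 fold changes, at most 4 (where no gene was called, the 2 of highest mean), the cell type markers, and the 5 genes most like Gbp2. The 7 antiviral genes that fell, the genes of the ISG15 system, Ifnb1, Ifng, Nlrc5, Ciita, Hmgcs1 and the cluster neighbours were named after their values were seen. Some items are not reported here. Promoter windows (RefSeq, GRCm38.p6) matched all 9 genes by symbol, 12 windows in all, and transcripts came from GENCODE M21. Figures were drawn with matplotlib 3.10.9 in Python 3.11.15. Results were recomputed with a filter of 5 FPKM or none, pseudocounts of 0.5 and 0.1, median-ratio scaling, TPM, quantile normalization, a fit blocked by replicate number, a robust fit, a limma fit with no trend, and each library left out.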

Additional observations from a re-analysis of the deposited data

How the results depend on the processing

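Of the 59 calls among the 68 pathway genes, 52 held in all 16 alternatives that tested them, 7 were lost in at least 1, and none turned its direction. Of the 9 genes without a call, 7 gained one in at least 1 alternative. Over all genes, 4428 were called higher, but 2901 with a filter of 5 FPKM, which tests fewer genes (8071), and 2634 were called lower, 1959 with that filter. Among pathway genes 42 were called higher and 65 without a filter on low values, which adds genes of low level. Leaving out 1 library gave 3865 to 4516 higher and 2273 to 2612 lower genes over all, 39 to 44 higher and 14 to 17 lower pathway genes. The median log2 fold change of the 9 genes was 1.60, but 2.17 and 1.97 with pseudocounts of 0.1 and 0.5 and 1.96 after rescaling to TPM, all of which weaken the pseudocount of 1 for low genes. The log2 fold change of Isg15 was 3.42, that of Gbp3 3.43 and that of Irf2 1.64 with a pseudocount of 0.1, against 1.59, 2.02 and 0.57 with 1. Only Irf9 changed sign, to 0.002 without R153A replicate 2. Leaving out 1 library moved the median of the 9 between 1.57 and 1.67. Same-numbered libraries of the 2 groups deviated together with correlations of -0.049, -0.009 and 0.06, and not every library correlated best with its own number. With 3 libraries per group, these values cannot show whether the numbers stand for more than a label. With the replicate block 4316 genes were called higher and 2560 lower, and the calls of Jak1 (limma adjusted p = 0.0542) and Tyk2 (0.0507) ended. Quantile normalization moved the median of all genes by -0.10 and median-ratio scaling by -0.07. With no read counts, what depth limits cannot be stated, and levels under 1 FPKM have unknown precision.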
